A study of Mus musculus with 3 samples.

Results

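Ribosome profiling sequences the stretches of mRNA that ribosomes shield from nuclease, so that the reads on a coding sequence (CDS) report ribosomes at work on it. The 10 genes described here encode matrix and stromal proteins: the fibrillar collagen chains Col1a1, Col1a2 and Col3a1, the basement membrane chains Col4a1 and Col4a2, fibronectin (Fn1), the matrix-binding glycoprotein Sparc, the collagen chaperone Serpinh1, the intermediate filament vimentin (Vim) and the transcriptional inhibitor Id3. They were found by symbol, as 10 of 20823 genes whose transcripts had both UTRs and a CDS, with the longest transcript used for each gene. They were selected on measured values, namely how far their CDS reads in harringtonine lay from those of genes of equal CDS length, so the harringtonine values below are descriptions and support nothing by themselves.

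The libraries came from primary mouse cortical neurons, dissociated per the study's methods from embryonic cortex of CD-1 mice and grown in Neurobasal medium with B27 and Glutamax; the labels give no genotype. The WT library received no drug. The Chx library received cycloheximide, which halts elongating ribosomes, for 2 min. The Harr library received harringtonine, which stops ribosomes just after initiation but lets those in elongation finish, for 2 min before a cycloheximide pulse. Each treatment had 1 library, pooled from 3 dishes, so no difference has a replicate check, no test was made and every interval (95%) covers counting error only. All 3 libraries, WT included, met cycloheximide at 100 μg per ml in the buffers used for rinsing and lysis. CDS reads on the longest transcripts numbered 20210001 in Chx, 16670580 in WT and 3774534 in Harr, of which these genes held 0.0605%, 0.0683% and 0.0525%. The Harr library was the shallowest, and 3 reads there stand for 0.795 reads per 1000000 CDS reads.

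Collagens are secreted as triple helices in which glycine recurs in a fixed rhythm. Type I collagen joins Col1a1 and Col1a2 chains, type III is built from Col3a1 alone, and Col4a1 and Col4a2 chains combine into the network under endothelium and meninges. Serpinh1 (also called HSP47) binds procollagen in the endoplasmic reticulum and hydroxylases modify its prolines there. In the brain these proteins are made mostly by fibroblasts of the meninges and by vascular cells, while Vim and Id3 also mark radial glia and astrocytes. Because harringtonine lets elongating ribosomes leave, reads are lost from the start of each CDS first, and a short CDS can empty while the far part of a long one is still occupied.

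The start codon is where harringtonine holds ribosomes, and the bases around it are shown for some of the genes, first for the type I collagen chains. The windows are 15 bases of 5′ UTR, the ATG in capitals and the next 12 bases of CDS, from GENCODE M21 transcripts on mm10. The first base of the ATG lies at position 94936369 of chromosome 11 for Col1a1 and 4505840 of chromosome 6 for Col1a2, both on the plus strand.
Col1a1: gtctagggtctagacATGttcagctttgtg
Col1a2: gtctaagtggtagacATGctcagctttgtg
Col1a1 and Col1a2 had the same base at 25 of 30 positions. Their 5′ UTRs also held 2 (Col1a1) and 3 (Col1a2) further ATGs upstream of this one, and 55.4% of all genes held at least 1.

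The windows of the genes whose CDS reads in Harr lay furthest below those of their peers follow. The ATG begins at position 99349421 of chromosome 7 (minus strand) for Serpinh1, 55409984 of chromosome 11 (minus strand) for Sparc, 13574432 of chromosome 2 (plus strand) for Vim and 136143879 of chromosome 4 (plus strand) for Id3.
Serpinh1: gcccacctcccagccATGcgctctctcctt
Sparc: agagttcccagcatcATGagggcctggatc
Vim: cccaccttcgaagccATGtctaccaggtct
Id3: tctctactctccaacATGaaggcgctgagc
All 10 genes had a purine 3 bases before the ATG, as did 84.1% of 20690 genes with a matched sequence. Only Col4a1 and Col4a2 had a G directly after it, a letter that 49.2% of genes carried. Col4a1 and Col4a2 lie head to head on chromosome 8 (chr8:11198423-11312826, minus strand, and chr8:11312805-11449287, plus strand), and their 5′ ends overlap on opposite strands, which touches their 5′ UTR reads only. Fn1 lies at chr1:71585524-71653175 on the minus strand. Glycine made up 26.8% (Col1a1) to 28.6% (Col4a1) of the codons of the 5 collagen chains against a median of 6.05% over all genes, and 8.20% in Fn1. At most 1.45% of the 25-base words of any member's CDS (Vim, with keratins) occurred in another gene. This counts exact matches only, and reads that align to relatives with mismatches were not examined.

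Levels were compared as CDS reads per kilobase and per 1000000 CDS reads (RPKM, recomputed from counts). Vim was the most densely read of the genes in all 3 libraries, with 238 RPKM in Chx, 95.3 in Harr and 281 in WT. Sparc had 57.5, 6.70 and 62.4 in the same order, Serpinh1 45.6, 4.01 and 41.2, and Id3 21.9, 2.94 and 32.8. These genes were high in Chx and WT and far lower in Harr. Among the long chains, Col4a2 had 12.3 RPKM in Chx, 32.8 in Harr and 12.8 in WT, Col4a1 5.96, 16.6 and 6.90, and Fn1 5.11, 13.2 and 5.90. These 3 were highest in Harr. Col1a1 stood at 4.40, 4.86 and 5.13, within counting error in Harr of both other libraries. Col1a2 (0.396, 1.16 and 0.379 RPKM) and Col3a1 (0.315, 0.964 and 0.246) were the least read of the 10 genes. Neither reached 100 CDS reads over the 3 libraries, so no rank among all genes is given for them.

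**Figure D1:**
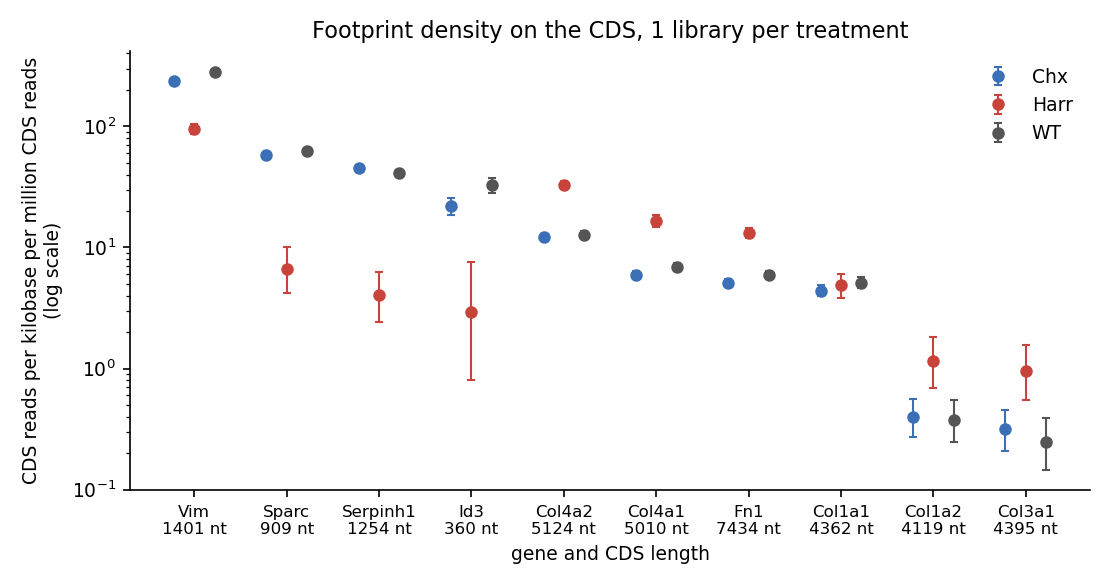
CDS reads per kilobase per 1000000 CDS reads (log axis) of each gene in the Chx, Harr and WT libraries, 1 point per library with its 95% counting interval, in order of the WT level and with the CDS length under each name. The Harr points of Vim, Sparc, Serpinh1 and Id3 lie below the other libraries' points, and those of Col4a1, Col4a2 and Fn1 lie above them.

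In WT the order from Vim down to Col1a1 (Vim, Sparc, Serpinh1, Id3, Col4a2, Col4a1, Fn1, Col1a1) held between every pair of neighbours beyond counting error. The closest such neighbours were Fn1 and Col1a1, with a ratio of 1.15 (1.01 to 1.31). Col1a2 and Col3a1 did not differ beyond it (ratio 1.54, 0.813 to 2.98). In Harr the order changed to Vim, Col4a2, Col4a1, Fn1 and Sparc, and the lower neighbours from Sparc on overlapped within their intervals.

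Chains that assemble together were read in unequal amounts. Col4a1, per kilobase, was read at 0.484 (0.438 to 0.533) of Col4a2 in Chx, 0.506 (0.440 to 0.580) in Harr and 0.540 (0.487 to 0.598) in WT, and these intervals overlapped. Col1a1 was read 11.1 (7.77 to 16.4) times as densely as Col1a2 in Chx, 13.5 (9.10 to 21.01) times in WT and 4.20 (2.49 to 7.44) times in Harr. The Harr interval of that pair lay below the other 2. Col1a2 rested on 33 reads in Chx, 26 in WT and 18 in Harr, so its ratios are coarse.

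The pairs of libraries below share samples, since Harr enters both harringtonine comparisons and Chx and WT each enter 2. A CDS ratio compares, on the log2 scale, the share of all CDS reads that a gene held in each library, with 0.5 added to each count. Of the 10 genes, 8 had at least 100 CDS reads over the 3 libraries, as did 11459 genes in all. Col1a2 (77 reads) and Col3a1 (62 reads) did not pass and are given as values only. Between Chx and WT, 0 of the 8 reached 1 in size, and 0.323% of all genes did. Their ratios ran from −0.59 (Id3) to 0.15 (Serpinh1), with a median of −0.21 beside 0.03 over all genes.

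The harringtonine ratios of the genes differed with CDS length, except for Col1a1. Of the 8 that passed the minimum, 4 lay at or below −1 between Harr and Chx, where 14.1% of all genes did, and 3 lay at or above 1, where 4.63% did. Against WT the counts were again 4 and 3, where 14.7% and 5.30% of all genes passed. The low ones were Serpinh1, Sparc, Id3 and Vim, with CDSs of 360 to 1401 nucleotides, and the high ones were Col4a1, Col4a2 and Fn1, with CDSs of 5010 to 7434. The eighth gene, Col1a1 (4362 nucleotides), was neither, at 0.15 against Chx and −0.07 against WT. These directions are relative to the sum of CDS reads. Scaled to all aligned reads, the median of all genes shifted from −0.05 to −0.60 between Harr and Chx and the 3 long genes stood at 0.82 to 0.93, while scaling to mitochondrially encoded CDS reads shifted it to −1.43 and put them at −0.014 to 0.10, and at −0.15 to 0.05 against WT. Col1a1 stood at −0.40 and −1.23 against Chx under these scalings, and with it 5 genes were low under the second of these. The share of all genes at or below −1 was 31.4% and 73.0% under these scalings, and at or above 1 it was 0.559% and 0.0436%. With median-of-ratios size factors 3 members were again at or above 1, where 5.84% of all genes were.

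A length-matched deviation removes the scaling and most of the part of length: it is the gene's log2 ratio minus the median of the 200 genes on either side in order of CDS length. For long genes these neighbours span a wide range of lengths, so the match is rough there. Among the 8 genes, 4 had a deviation at or below −1 from Chx, where 5.38% of all genes did, and the same 4 had one from WT, where 6.11% did. All 4 are short, namely Serpinh1, Sparc, Id3 and Vim, and no collagen chain nor Fn1 was among them.

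**Figure D2:**
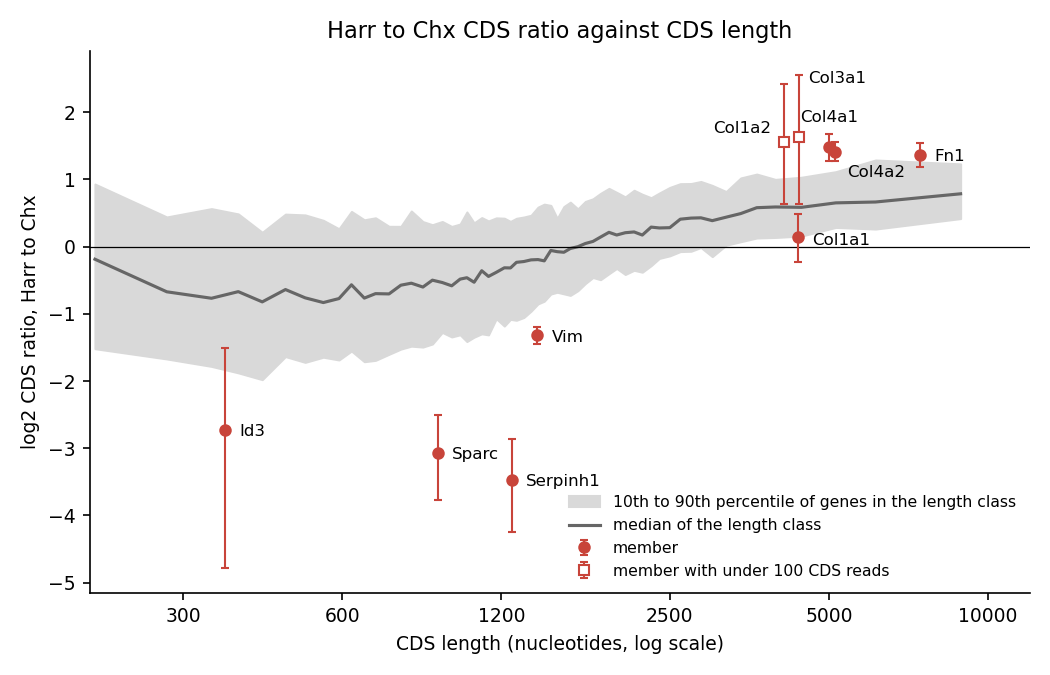
log2 ratio of CDS reads between Harr and Chx (per 1000000 CDS reads) against CDS length on a log axis. The line is the median and the band the 10th to 90th percentile of genes of each length class with at least 100 CDS reads, and the red points are the 10 genes with 95% counting intervals (open squares, under 100 reads). Id3, Sparc, Serpinh1 and Vim lie below the band, and the long genes other than Col1a1 lie above it.

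Serpinh1, the chaperone that procollagen needs for folding, had 1156 CDS reads in Chx and 861 in WT but 19 in Harr. Its share of CDS reads was 11.1 times lower in Harr than in Chx (log2 ratio −3.47 ± 0.33, SE from counts), and the log2 ratio to WT was −3.32 ± 0.33. The 400 genes nearest in length (1221 to 1290 nucleotides) had a median of −0.32 against Chx, and 0 of them were lower. Its deviation of −3.15 was the lowest of 9360 genes with at least 200 CDS reads in Harr and Chx together. Among the 11459 genes with at least 100 CDS reads over the 3 libraries it ranked number 2 from the bottom, and against WT number 4. The 4 CDS segments of Serpinh1 held 785, 100, 102 and 169 reads in Chx and 12, 1, 1 and 5 in Harr, so the reads were scarce along the whole CDS. For each 100 reads in Chx, Harr had 1.53 in the first segment, of 619 nucleotides, and 1.89 in the rest. Genes of near-equal length had 10.7 in segments with midpoints under 600 nucleotides and 19.4 in the later ones.

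Sparc, a calcium-binding glycoprotein that binds collagen, had 1057 CDS reads in Chx and 946 in WT but 23 in Harr. The log2 ratio was −3.07 ± 0.30 to Chx and −3.19 ± 0.30 to WT. Of its 400 length neighbours, whose median was −0.51 against Chx, 0 were lower. Within Sparc the last coding segment, only 29 nucleotides long, held 6 of the 23 Harr reads (26.1%) but 2.55% of the Chx reads and 6.98% of the WT reads. Segments with midpoints under 600 nucleotides gave 7 Harr reads for 604 in Chx and the later ones 16 for 453.

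Id3 encodes a helix-loop-helix protein that blocks basic helix-loop-helix factors and does so without binding DNA. It had 159 CDS reads in Chx and 197 in WT but 4 in Harr. The log2 ratio was −2.73 ± 0.69 against Chx and −3.31 ± 0.69 against WT. Its interval against Chx ran from −4.79 to −1.51. Genes of 312 to 408 nucleotides had a median of −0.76, and 7 of 400 were lower than Id3. Against WT, where Id3 was also lower in Chx (−0.59, −0.90 to −0.28), 0 of 400 were lower.

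Vim had 6750 CDS reads in Chx, 6566 in WT and 504 in Harr, and so is the best measured of the genes. Its log2 ratio was −1.32 ± 0.07 against Chx and −1.56 ± 0.07 against WT, against length-neighbour medians of −0.22 and −0.18, and 7 and 3 of 400 neighbours were lower. The loss was smaller in the later segments, though not at each step. Harr had 5.79 reads per 100 in Chx in the first segment (positions 1 to 563), 9.77 in segment 3, 7.52 in segment 4, 15.3 in segment 6, 32.9 in segment 8 and 32.3 in the last, which ends at 1401. Segment 7 held only 5 reads in Chx and 3 in Harr. Per 100 reads in WT the values of the same segments were 6.12, 8.68, 8.04, 14.8, 21.1 and 14.1, so the last segment was below segment 8 there. Genes of near-equal length showed the same direction, with 10.8 under 600 nucleotides and 22.9 beyond.

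Col4a1, Col4a2 and Fn1 held larger shares of the CDS reads in Harr. Col4a1 had 603 CDS reads in Chx, 576 in WT and 314 in Harr, for log2 ratios of 1.48 ± 0.10 against Chx and 1.27 ± 0.10 against WT. Col4a2 had 1275, 1091 and 635 reads and ratios of 1.42 ± 0.07 and 1.36 ± 0.07. Fn1, the fibril-forming ligand of integrins, had 768, 731 and 370 reads and ratios of 1.37 ± 0.09 and 1.16 ± 0.09. Their deviations from their length neighbours were 0.85, 0.79 and 0.66 against Chx and 0.54, 0.63 and 0.29 against WT. The neighbours had CDSs of 4311 to 5967 nucleotides for Col4a1, 4374 to 6120 for Col4a2 and 5685 to 106173 for Fn1. Between 5 and 20 length neighbours were as high or higher against Chx, of 400 for the Col4a chains and 366 for Fn1. Against WT the numbers were 14 for Col4a1, 11 for Col4a2 and 38 for Fn1.

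Col1a1 was close to 0 in both comparisons and lay below the median of its length peers. It had 388 CDS reads in Chx, 373 in WT and 80 in Harr, with log2 ratios of 0.15 ± 0.18 and −0.07 ± 0.18. Equally long genes had medians of 0.60 and 0.69, and 38 and 16 of 400 lay lower than Col1a1. Its fibrillar partners had few reads, Col1a2 33, 26 and 18 and Col3a1 28, 18 and 16 in Chx, WT and Harr. Their ratios were nonetheless above that of Col1a1, at 1.56 (0.63 to 2.42) and 1.63 (0.63 to 2.55) against Chx. The intervals of Col1a1 (−0.22 to 0.49) and of these 2 chains did not overlap, although all 3 CDSs are 4119 to 4395 nucleotides long.

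Reads were then placed by their distance from the start codon. In the 6 long members together, segments whose midpoints lay within 1200 nucleotides of the start held 623 reads in Chx, 490 in WT and 111 in Harr, and segments from 2100 nucleotides on held 1678, 1689 and 941. The near part was thus depleted relative to the far part in Harr, with a near-to-far ratio of 0.319 (0.253 to 0.396) against Chx and 0.408 (0.323 to 0.509) against WT. In 1117 other genes whose CDS reached 4000 nucleotides the ratios were 0.413 (0.410 to 0.417) and 0.382 (0.379 to 0.386), which lay above the members' interval against Chx and inside it against WT. Without Col1a1 the members' ratio against Chx was 0.346 (0.273 to 0.433), and its interval included that of the other genes.

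The far part was then compared gene by gene. Its log2 ratio between Harr and Chx was 1.72 (1.47 to 1.97) in Col4a1, 1.64 (1.44 to 1.83) in Col4a2 and 1.66 (1.45 to 1.86) in Fn1, and the median of 632 other long genes was 0.97. Of those genes, 2.69%, 4.59% and 3.80% were higher. Against WT the same 3 had 1.39, 1.43 and 1.38 beside a median of 1.17, and 18.0%, 14.1% and 19.2% of 605 genes were higher, so the excess was smaller there. Col1a2, with only 16, 9 and 13 far reads in Chx, WT and Harr, had the highest values of the 6 long members, 2.13 (0.94 to 3.27) against Chx and 2.65 against WT (1.34 to 4.08), with 4 of 632 and 0 of 605 other genes higher. Col3a1 had 1.24 (−0.11 to 2.39) and 1.64 (0.21 to 2.95), with 139 and 17 higher. Col1a1 had 0.74 (0.28 to 1.16) against Chx and 0.19 (−0.26 to 0.60) against WT, and 78.6% and 99.0% of the other genes were higher.

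In the first 600 nucleotides the long genes ranged from 0 reads in Harr to a share near that of Chx. Col1a1 had 50 reads in Chx, 32 in WT and 0 in Harr in its first 600 nucleotides, and the upper end of the 95% interval of its log2 ratio was −1.29 against Chx and −0.89 against WT. In the same stretch Fn1 had 86, 55 and 3 reads, Col4a1 79, 48 and 9, and Col4a2 74, 67 and 14. Given the lower depth of Harr, these make log2 ratios to Chx of −2.21 (−4.73 to −0.83) in Fn1, −0.64 (−1.89 to 0.28) in Col4a1 and 0.06 (−0.92 to 0.85) in Col4a2, beside −0.40 in the other long genes. The intervals of both Col4a chains include 0. Fn1 then held 188 reads in Harr beyond 4000 nucleotides, 298 in Chx and 319 in WT.

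**Figure D3:**
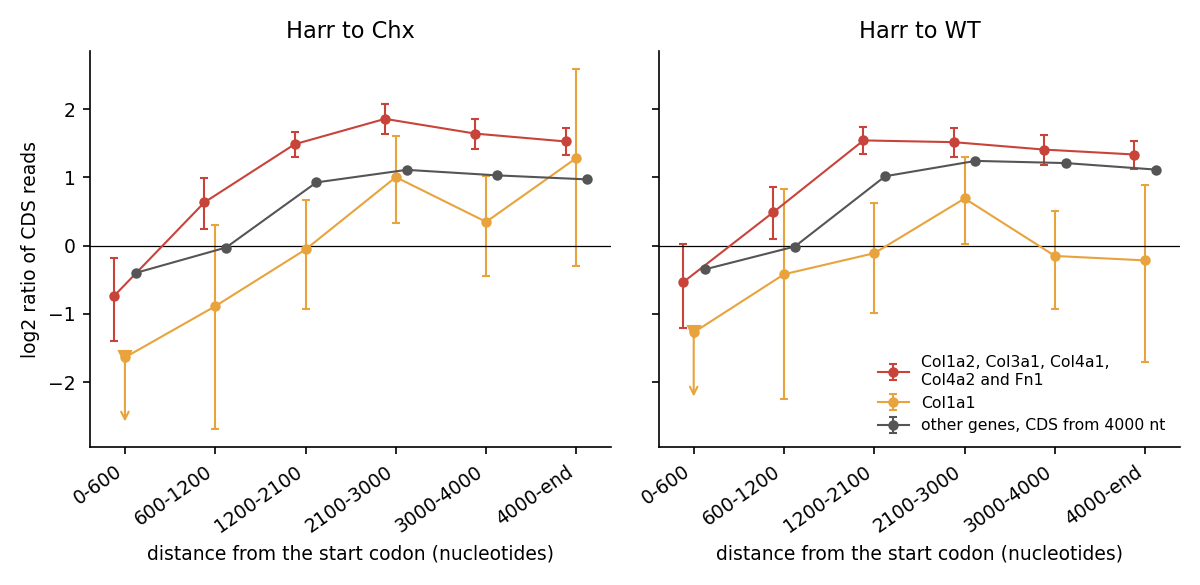
log2 ratio of CDS reads, Harr to Chx (left) and Harr to WT (right), in 6 classes of distance from the start codon in nucleotides, for Col1a2, Col3a1, Col4a1, Col4a2 and Fn1 summed (red), Col1a1 (yellow) and other genes of 4000 or more coding nucleotides (grey), with 95% counting intervals. The triangle with an arrow marks 0 Harr reads in Col1a1 and is drawn at the value that 3 reads would give. Red lies above grey from 600 nucleotides on, and Col1a1 lies below red in every class.

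The distribution of reads along the long genes was also compared between Chx and WT, a comparison chosen after the values were seen. Between Chx and WT the near-to-far ratio of the 6 long members was 1.28 (1.11 to 1.47), and that of the other long genes was 0.925 (0.920 to 0.931). Without Col1a1, whose own ratio was 1.957 (1.34 to 2.89), it was 1.20 (1.03 to 1.39). The far part of Fn1 had a log2 ratio of −0.28 (−0.46 to −0.11) and that of Col4a1 −0.33 (−0.55 to −0.12), where the median of 664 other long genes was 0.16. The near-to-far ratio of Col4a2 was 1.07 (0.852 to 1.34), and those of Col1a2 and Col3a1, with few reads, were 0.530 (0.139 to 1.89) and 0.628 (0.118 to 3.30). These intervals all include the pooled value. The far part of Col4a2 had a log2 ratio of −0.20 (−0.37 to −0.03), with 88.0% of the other genes higher, and those of Col1a2 and Col3a1 had 0.52 (−0.71 to 1.91) and 0.39 (−0.65 to 1.53).

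Reads were counted at their 5′ ends, so a footprint on the start codon falls in the 5′ UTR, and the 5′ UTR counts hold initiating ribosomes as well as any upstream. Serpinh1 had 87 5′ UTR reads in Chx, 33 in WT and 70 in Harr, and Sparc had 26, 53 and 66. Vim had 444, 314 and 487. In Sparc and Vim the 5′ UTR held the most reads in Harr, the shallowest library, and in Serpinh1 it held fewer than in Chx and more than in WT. Among the long genes Col4a2 had 54, 15 and 67, and the rest had fewer, namely 21, 3 and 11 in Col4a1, 18, 2 and 15 in Fn1 and 10, 3 and 4 in Col1a1. Col1a2 (4, 0 and 5), Col3a1 (1, 0 and 2) and Id3 (2, 2 and 4) had too few for a comparison in these pairs.

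The change of the 5′ UTR:CDS ratio is given as a log2 odds ratio for genes that had 10 or more reads in both regions over the pair. Between Harr and Chx, 7 of the genes passed and 5 reached 1, where 92.1% of all genes did, so the members' count does not exceed the background. Their median was 1.31, and that of all genes was 2.46. Sparc (6.82, 5.92 to 7.82) and Serpinh1 (5.58, 4.78 to 6.49) were near the top of all genes, with 0 and 2 of 400 length neighbours higher, and Vim stood at 3.88 (3.64 to 4.11). Col4a1 (0.04, −1.21 to 1.15) and Fn1 (0.80, −0.32 to 1.88) were under 1, and Col4a2 had 1.31 (0.76 to 1.88). The CDS terms of these odds are the values that chose the genes.

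Taken by itself, the 5′ UTR was less exceptional. Per aligned read, 5′ UTR reads of all genes together were 3.78 times as many in Harr as in Chx. Serpinh1 had 2.95 (2.12 to 4.08) times as many, Vim 4.02 (3.52 to 4.58), Col4a2 4.54 (3.13 to 6.63) and Fn1 3.05 (1.43 to 6.41). Col4a1 had 1.92 (0.835 to 4.16) and Col1a1 1.46 (0.335 to 5.08). Sparc, at 9.30 (5.82 to 15.3), was the one gene of the 7 whose interval lay wholly above the pooled value. Against WT, where the pooled value was 5.63, Sparc had 3.86 (2.65 to 5.65), and of the 6 genes that passed it was Col4a2, at 13.8 (7.82 to 26.1), whose interval lay wholly above. That of Vim, at 4.80 (4.16 to 5.55), lay wholly below. Which gene stood out thus changed with the library compared. The 5′ UTR of this Sparc transcript overlaps the CDS of other Sparc transcripts, so some of its reads may be coding.

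Against WT, 6 genes passed and all 6 reached 1, where 96.0% of all genes did. Their median was 3.97 beside 3.23. Col4a1 (2.59), Col4a2 (2.90) and Fn1 (3.61) lay above the medians of their length neighbours (2.17, 2.17 and 2.08). Of these neighbours, 134 of 400, 96 of 400 and 30 of 330 were as high or higher. Between Chx and WT, 7 passed and 4 reached 1 (Fn1 2.82, Col4a1 2.55, Col4a2 1.59 and Col1a1 1.53), where 34.7% of all genes did. All 4 are long. The median over the 7 was 1.53 beside 0.67. Sparc was the exception in direction, at −1.17 (−1.94 to −0.47), and 397 of 400 length neighbours were higher. The counts behind Fn1 and Col4a1 are small, with 2 and 3 reads in the 5′ UTR in WT. With 5 in place of 0.5 added to each count, Col1a1 had 0.85, so that 3 genes reached 1, Fn1 had 1.65 and Col4a1 1.63, and the median over the 7 was 0.85.

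**Figure D4:**
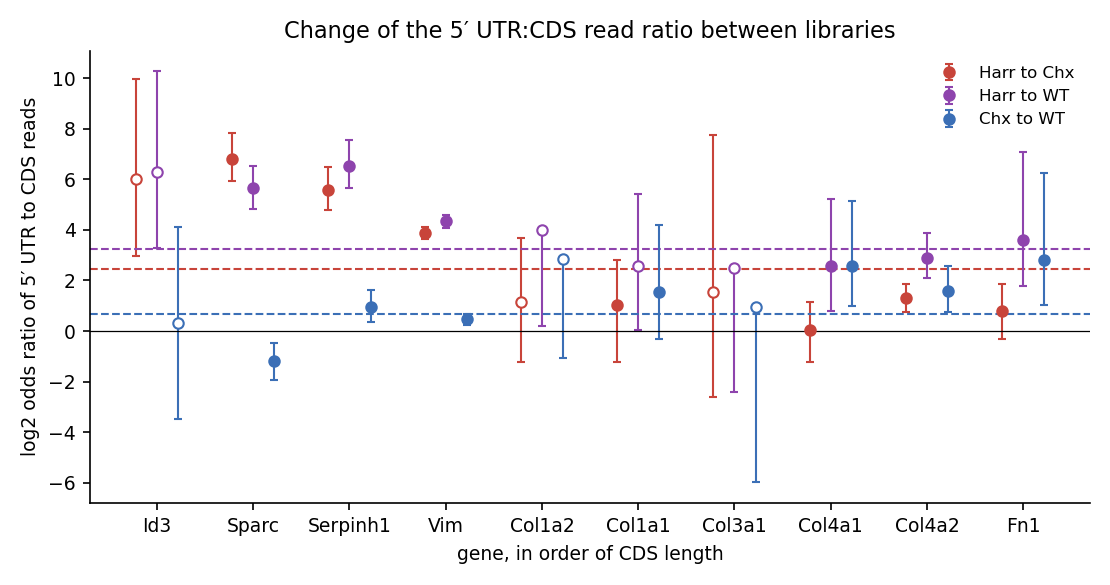
log2 odds ratio of 5′ UTR to CDS reads for Harr to Chx, Harr to WT and Chx to WT, genes in order of CDS length, with 95% counting intervals. Dashed lines are the medians of all genes in the same colours, open points have under 10 reads in a region, and bars with no upper end stand for genes with 0 5′ UTR reads in WT. Sparc, Serpinh1 and Vim lie above the harringtonine medians, and the long genes lie below the Harr to Chx median. These medians are not matched for CDS length.

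Few reads lay in 3′ UTRs. Vim alone had enough for a comparison, with 5 reads in Chx, 15 in WT and 26 in Harr. Its 3′ UTR:CDS log2 odds ratio was 6.01 (4.71 to 7.86) between Harr and Chx, where the median of 5218 genes was 3.75, and 4.48 (3.51 to 5.53) between Harr and WT, where the median of 5799 genes was 2.59. Col4a2 had 0, 2 and 7 reads and Serpinh1 1, 6 and 0.

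The last coding segment was examined after the values were seen. It held 142 of the 6566 WT reads of Vim (2.16%) and 62 of the 6750 Chx reads (0.919%). In Sparc it held 6.98% of WT reads and 2.55% of Chx reads, and in Id3 13.2% and 5.03%. The log2 odds between Chx and WT were −1.25 (−1.71 to −0.81) in Vim, −1.50 (−2.23 to −0.83) in Sparc and −1.46 (−2.91 to −0.28) in Id3. Fn1, with 3 and 8 reads there, had −1.36 (−4.05 to 0.57). These 4 of the 8 genes with enough reads lay at or below −1, where 18.5% of all genes did, and the median over the 8 was −1.03 beside −0.34. The last segments of these 4 were short, at 29 to 72 nucleotides, and the share over all genes was not matched for segment length. Serpinh1, with a longer last segment of 303 nucleotides, had 0.21 (−0.17 to 0.60), and Col4a2, with 258 nucleotides, had 0.71 (−0.26 to 1.79). Col1a1 had −0.77 (−2.57 to 0.81) and Col4a1 −0.82 (−2.45 to 0.62).

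Other genes of the matrix were taken from lists and counted with the same threshold between Harr and Chx, where 14.1% of all genes were low (at or below −1) and 4.63% high (at or above 1). As for the members, these counts are relative to the sum of CDS reads, and 0.559% of all genes were high when scaled to all aligned reads, 0.0436% when scaled to mitochondrially encoded CDS reads and 5.84% with median-of-ratios size factors. Of 16 other collagen chains past the minimum, 0 were at or below −1 and 6 at or above 1 (Col4a5, Col5a1, Col5a2, Col12a1, Col16a1 and Col18a1), and their median deviation from equally long genes was 0.34. The most read were Col5a2 (1.19 ± 0.11), Col19a1 (0.26 ± 0.14) and Col26a1 (−0.68 ± 0.20). Among 19 genes of collagen biosynthesis and secretion, 2 were low (Sec13 and Bmp1) and 1 high (Colgalt2), and 0 had a deviation at or below −1. There P4hb, a subunit of the prolyl hydroxylase, had 0.55 ± 0.03, Ppib, a prolyl isomerase, −0.17 ± 0.05 and Sec23a, a coat protein of secretory vesicles, 0.23 ± 0.05. None of these 19 came near the deviation of Serpinh1.

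Of 28 basement membrane and other glycoprotein genes, 1 was low (Smoc1) and 3 high (Lama2, Postn and Ccn1), with Spock2 at −0.44, Sparcl1 at 0.95 and Spock1 at −0.43. Sparcl1, the closest relative of Sparc on this list, was thus not low. Of 10 neural lecticans and link proteins, 0 were low and Hapln4 was high, and Reln (0.45), Ptprz1 (0.59) and Ncan (0.49) were the most read. Among 13 integrins and other matrix receptors 2 were low (Itgb5 and Cd44) and 0 high, with Dag1 at 0.24, Itgb1 at 0.68 and Itgb8 at 0.32. Of 11 matrix proteases and inhibitors, 3 were low (Mmp14, Timp3 and Serpine2, the last at −1.20) and 0 high, and Timp2 had −0.94 and Adamts1 0.67. After length matching Smoc1 (−1.16), Itgb5 (−1.36), Cd44 (−1.42) and Mmp14 (−1.65) were at or below −1 in these lists, and Timp3 (−0.71) and Serpine2 (−0.86) were not.

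The relatives of Id3 and Vim were counted in the same way. Of 9 ID and helix-loop-helix genes, 5 were low (Id1, Id2, Id4, Hes1 and Hes5), beside 14.1% of all genes, and 0 high, with Id2 at −1.26, Tcf4 at 0.17 and Tcf12 at −0.22. After length matching only Id4 (−1.24) remained at or below −1. Of 11 intermediate filament genes, 2 were low (Gfap and Ina) and 1 high (Prph), and after length matching 1 (Gfap) was at or below −1. The neuronal filaments Ina (−1.01), Nefl (−0.15) and Nefm (0.00) had higher ratios than Vim. After length matching they stood at −0.95, −0.13 and 0.22, and Vim at −1.10, so Ina was close to Vim.

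Markers of the cells in the culture were read beside these values. Neuronal markers were all past the minimum (8 of 8) and summed, per 1000000 CDS reads, to 9530 (Chx), 10718 (Harr) and 10422 (WT). Markers of fibroblasts and meninges were read too, with 0 of 11 at 0 in any library and sums of 152, 225 and 176. Only 7 of the 11 passed the minimum. Foxc1 (7, 2 and 4 reads in Chx, Harr and WT), Lum (5, 2 and 10) and Twist1 (12, 6 and 7) had few reads. Those of pericytes and smooth muscle summed to 73.7, 69.9 and 71.9, with Kcnj8 at 0 throughout. Of the fibroblast reads in Chx, 1101 of 3068 were from Pdgfra, and of the pericyte reads 990 of 1490 were from Cspg4, genes that precursors of oligodendrocytes also express. Pdgfrb had 12 reads in Chx, 5 in WT and 2 in Harr. Astrocytes and radial glia, with 0 of 10 at 0, summed to 1207, 1155 and 1262. Endothelial markers summed to 13.1, 38.2 and 10.3, with Esam, Cldn5, Tek and Cdh5 at 0 in Harr (4 of 9) and 125 of the 144 reads there from Plvap. Microglial markers summed to 8.86, 3.97 and 7.44, with P2ry12, Cx3cr1 and Tmem119 at 0 in Harr, and those of the oligodendrocyte lineage to 226, 101 and 247, with Mog and Mobp at 0 throughout.

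Between Harr and Chx, 0 of 7 fibroblast markers past the minimum were low and 3 were high (Col5a1, Col5a2 and Postn), beside 4.63% of all genes. All of the 7 but Pdgfra, the 3 high ones included, were already counted among the collagen chains and glycoproteins, so they are no separate group. Dcn stood at −0.83 and Pdgfra at 0.03. Of 10 markers of astrocytes and radial glia, 5 were low (Gfap, Aqp4, Slc1a3, Hes5 and Aldoc), beside 14.1% of all genes, and 0 high, with Fabp7 at 0.26, Slc1a2 at 0.01 and Slc1a3 at −1.03. After length matching 3 of them (Gfap, Slc1a3 and Aldoc) were at or below −1, beside 5.38% of all genes. In the other marker lists Stmn2 (−1.43), Myl9 (−1.61) and C1qa (−2.55, with 1 read in Harr) were. Among neuronal markers Stmn2 (−2.25) and Tubb3 (−1.18) were low and Map2 (1.03) was high. In the other lists, low and high genes were Egfl7 and Plvap among 2 endothelial genes, Myl9 among 5 of pericytes, C1qa among 2 of microglia, and Mbp, Olig1 and Olig2 among 4 of oligodendrocytes. The part of these cell types in the members' values was not tested. In pooled dishes, fewer cells of a type and fewer footprints per cell cannot be told apart.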

How the data were processed

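Ribosome footprints were profiled in primary mouse cortical neurons (1 library each of Chx, Harr and WT). The authors deposited 9 tables, 1 per library and region, written by Plastid. The deposited counts are unnormalized reads per exon segment. The authors also gave a coverage signal (reads per nucleotide of segment) and RPKM, scaled to kilobases and 1000000 reads. Per the file headers, reads of 25 to 100 nucleotides were counted at the 5′ end (offset 0) on mm10 alignments without ribosomal reads and duplicates.

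Only counts were used here. Segments were summed per transcript, identifiers (99.1% of 142446 matched) were joined to GENCODE M21 symbols, and the longest transcript per gene was kept. Header totals were 35722483 reads (Chx), 9754412 (Harr) and 30219197 (WT). Ratios used 0.5 added to each count, a minimum of 100 CDS reads over the 3 libraries and exact (Clopper-Pearson) 95% intervals, which cover counting error only. Length matching used 200 genes on either side and was tested on simulated data. Segments above 600 nucleotides were left out of the positional sums of long genes, and kept in those of Vim, Serpinh1, Sparc and their length neighbours. The study's methods for its search of open reading frames state an alignment that allowed several hits per read. Whether these tables came from that alignment and counted such reads is not given in the sources used here. Groups came from the treatment labels, since the descriptions refer to fractions from a different experiment.

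The members and lists were chosen with earlier results of these data known. Named were all 10 members, the genes past 1 log2 in each list, its 3 most read genes, and the 10 other genes of lowest deviation, 1 of which is not reported here. Alternatives varied the scaling, transcript, minimum, pseudocount, length window and segment limits. Python 3.11.15, numpy 2.4.6, pandas 2.3.3, SciPy 1.17.1 and matplotlib 3.10.9 were used.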

Additional observations from a re-analysis of the deposited data

How the results depend on the processing

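No paired analysis was possible because each treatment had 1 library. Of 80 recomputed counts and medians, 70 stayed within 1.5 times the count or within the counting interval, and the other 10 were these. The number of genes at or above 1 was 3 in both harringtonine comparisons, 0 when scaled by all aligned reads or by mitochondrially encoded CDS reads, and 5 with no minimum number of reads, which adds Col1a2 and Col3a1. The median length-matched deviation (−0.78 against Chx and −1.07 against WT) was 0.086 and −0.25 with no minimum and −0.22 and −0.55 with at least 1000 CDS reads. That median falls between the short and the long genes and moves with which of them enter, whereas the count of deviations at or below −1 was 4 or 3 throughout (Vim stood at −0.96 against genes near in both length and level). Among the 70, the count at or below −1 went from 4 to 5 under mitochondrial scaling, which adds Col1a1, and to 3 with at least 1000 reads, which drops Id3, and the median 5′ UTR:CDS change between Chx and WT went from 1.53 to 0.85 with 5 added to each count. Values of single genes stayed within their counting intervals in 360 of 390 recomputations. Of the ratios past 1 in size, 3 changed sign, all under mitochondrial scaling, namely Fn1 against Chx (−0.014) and, against WT, Col4a1 (−0.044) and Fn1 (−0.15). Smaller ratios that changed sign were Col1a1 against Chx (−0.40 with all aligned reads, −1.23 with mitochondrial reads) and Col4a2 between Chx and WT (0.016). The transcript with the most reads, another length window and other segment limits changed none of the recomputed counts of members' ratios and deviations, and counts of the gene lists, last segments and length neighbours were not recomputed. The depth of Harr limits Id3 (4 CDS reads), Col1a2, Col3a1 and most 5′ and 3′ UTR values.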

Other observations

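The genes outside the members with the lowest deviations from equally long genes were described by the same measure, among genes with at least 200 CDS reads in Harr and Chx together. Among these 9360 genes Serpinh1 ranked number 1 and Sparc, at −2.56, number 3, with Gm49368 between them. Cycs (cytochrome c) had 1032 CDS reads in Chx, 994 in WT and 23 in Harr, and a deviation of −2.37. Cdk1, the mitotic kinase, had 435, 305 and 11 (−2.30) and Faim 351, 300 and 7 (−2.31). The ribosomal protein genes Rpl23a (−2.36) and Rpl30 (−2.29) also belonged to the 10 lowest, as did Gm49368 (−2.69), Tuba3a (−2.55), Zbed5 (−2.42) and Gm3839 (−2.25). Tuba3a and Gm3839 had no read in the 5′ UTR (0 in Chx and 0 in Harr), unlike Serpinh1 and Sparc.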
